A study of Homo sapiens with 12 samples.

Results

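The MCM helicase and replication genes described here are 10 of the 19970 protein-coding genes on chromosomes 1 to 22 and X: MCM2, MCM3, MCM4, MCM5, MCM6, MCM7, MCM10, CDC6, CDC45 and PCNA. They were taken by name, and the choice was made with earlier results of these data known. The data are peak lists from chromatin immunoprecipitation sequencing with antibodies against INTS13, INTS11, HDGF, ZEB1 or ZNF609, 2 libraries per protein. All libraries came from untreated, wild type HEK293T cells, a human embryonic kidney line grown in culture and fixed with formaldehyde, and no sample carried a mutation or a treatment to compare with. INTS11 is the endonuclease of Integrator, which cuts RNA as polymerase II makes it, and INTS13 belongs to the same complex. HDGF binds chromatin through a PWWP domain, while ZEB1 and ZNF609 carry zinc fingers, ZEB1 as a repressor of epithelial genes. Separate cultures are not stated for the replicates, so a difference between them may be technical. The 2 input libraries were not used here.

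In eukaryotic cells the origin recognition complex, CDC6 and CDT1 load rings of MCM2 to MCM7 onto DNA before S phase. CDC45 and the GINS complex then join the ring to make the active helicase, MCM10 takes part in its activation, and PCNA is the sliding clamp that holds polymerases on the template. Most of these genes are transcribed at the transition into S phase under the control of E2F factors. MCM10, CDC45, CDC6 and PCNA are thus not subunits of the MCM2 to MCM7 ring, and the set holds a loader, a ring, its activators and a clamp.

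A peak was assigned to a gene when it overlapped the window of 1 kb on either side of either end of the gene by 1 bp or more. A region was called reproducible when overlapping peaks of both lists of a protein merged into it, and a gene was counted when such a region reached its window. Fold is the authors' ratio of a peak's summit to the peak caller's background, and rank is the place of the peak in its own list by -log10 p, as a percentage from the top. The lists held between 26409 and 416964 peaks on these chromosomes and covered between 22.1 and 351 Mb. Each list held only 32 to 104 distinct fold values, so many peaks share a rank. Read depth is unknown. No test across samples was run, and the counts below are descriptions set beside the same count over all protein-coding genes.

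INTS13 and HDGF were found at most of the 10 genes, and HDGF stood further from its genome-wide share. Reproducible HDGF regions lay at 7 of 10 genes (MCM2, MCM3, MCM4, MCM5, MCM6, MCM7 and CDC45), against 29 of 67 other replication genes (43.3%) and 22.2% of all protein-coding genes. At MCM2 and MCM6 the region reached the window through the peak of replicate 2 only. Reproducible INTS13 regions lay at 8 of 10 genes, all but MCM6 and CDC6, against 52 of 67 other replication genes (77.6%) and 63.7% of all genes. The INTS13 share is thus near that of the other replication genes. INTS11 was reproducible at MCM2, MCM5 and CDC45, 3 of 10 genes, against 11 of 67 other replication genes and 17.5% of all genes. ZEB1 was reproducible at MCM5 alone, 1 of 10 genes, against 2 of 67 other replication genes and 3.79% of all genes. ZNF609 was reproducible at 0 of 10 genes and at 0 of 67 other replication genes, where 1.57% of all genes were called. For ZEB1 and ZNF609 these shares are too low for 10 genes to show a difference. With peaks of a -log10 q of 5 or more alone, HDGF was reproducible at MCM3 and MCM5, 2 of 10 genes, beside 2.66% of all genes, and INTS13 at MCM5, MCM7 and CDC45, 3 of 10 genes, beside 18.1%. Within 500 bp of an end, HDGF was reproducible at 4 of 10 genes (MCM3, MCM5, MCM7 and CDC45), beside 16.4% of all genes.

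**Figure D1:**
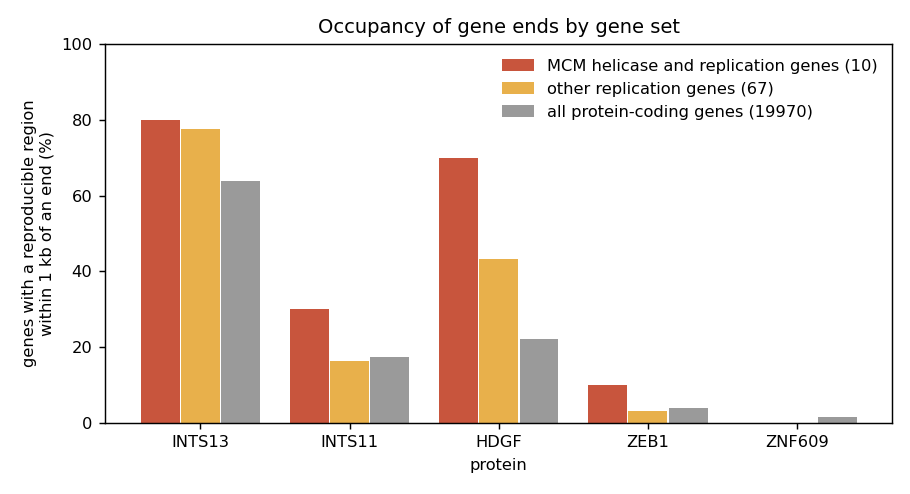
Share of genes (%, vertical axis) with a reproducible region within 1 kb of either end, for each protein, in the 10 MCM helicase and replication genes, the 67 other replication genes and all 19970 protein-coding genes. In that order the HDGF bars stand at 70%, 43.3% and 22.2% and the INTS13 bars at 80%, 77.6% and 63.7%.

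In the single lists HDGF again stood above its share of all genes, but nearer to the other replication genes than with reproducible regions. The single lists also showed how much INTS11 rests on its longer list. HDGF peaks were at 8 of 10 genes in replicate 1 and at 8 in replicate 2, where 38.5% and 34.6% of all genes had one. Of the 67 other replication genes, 48 (71.6%) had an HDGF peak in replicate 1 and 40 (59.7%) in replicate 2. INTS13 peaks were at 9 genes in replicate 1 and 8 in replicate 2, where 79.5% and 68.1% of all genes had one. INTS11 peaks were at 6 genes in replicate 1 and 3 in replicate 2, beside 50% and 22.2% of all genes. ZEB1 peaks were at 3 genes in replicate 1 and 1 in replicate 2, beside 13.3% and 8.48% of all genes. ZNF609 peaks were at 2 genes in replicate 1, MCM3 and CDC45, and at 0 in replicate 2, beside 7% and 3.44% of all genes.

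Of the 100 pairs of a gene and a list, 48 had a peak. MCM5 and CDC45 had a peak in 8 of the 10 lists, MCM7 in 6, MCM2, MCM3, MCM4 and MCM10 in 5, PCNA in 4, MCM6 in 2 and CDC6 in 0. The median was 5 lists for the 10 genes, 4 for the 67 other replication genes and 3 for all genes. A peak in 4 or more lists was found at 8 of the 10 genes, at 44 of 67 other replication genes and at 43.6% of all genes. No peak in any list was found at 1 of the 10 genes, CDC6, at 4 of 67 other replication genes and at 17.3% of all genes. The highest peak of each of the 48 pairs was ranked in its list. Of these 48 peaks, 4 ranked in the top 1% and 23 in the top 10% of their list, 12 ranked below the middle, and 18 had a -log10 q of 5 or more. Ranks of the highest peaks at the ends of all genes were not counted, so no share stands beside these.

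**Figure D2:**
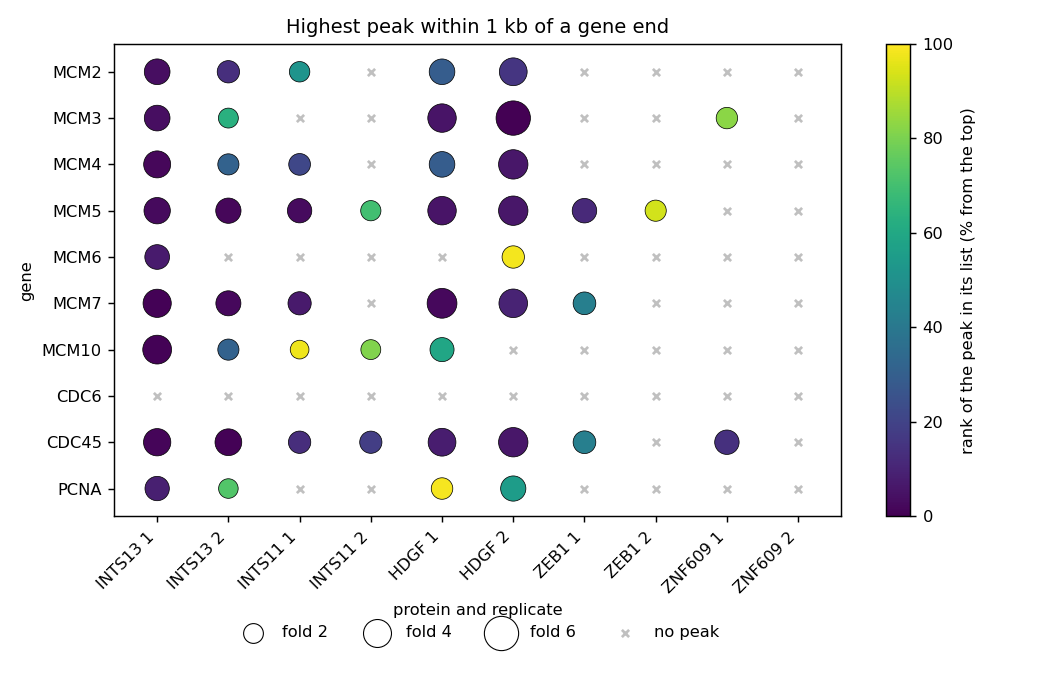
Highest peak within 1 kb of an end of each gene (rows) in each of the 10 peak lists (columns), with circle area proportional to the authors' fold, colour for the rank in the list (% from the top) and a cross for no peak. The darkest circles are in the INTS13 lists and at MCM3 in HDGF replicate 2, the ZEB1 and ZNF609 columns are nearly empty, and the CDC6 row is empty.

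The genes with a peak in the most lists lay where peaks were dense. Peaks crowd into some 1-Mb bins of the genome, and bins were taken as dense when they held, in the median list, over 2 times the peaks of an average bin. Of the 10 genes, MCM5 (3.23), MCM7 (2.69) and CDC45 (8.14) lie in dense bins, against 14 of 67 other replication genes (20.9%) and 22.7% of all genes. Outside dense bins, HDGF was reproducible at 4 of 7 genes (57.1%), against 16 of 53 other replication genes (30.2%) and 12.5% of all genes. INTS13 was reproducible there at 5 of 7 genes (71.4%), against 71.7% of other replication genes and 54.5% of all genes. INTS11 was reproducible at MCM2 only, 1 of 7 genes, against 5.66% of other replication genes and 5.95% of all genes. This restriction was chosen after seeing the data.

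**Figure D3:**
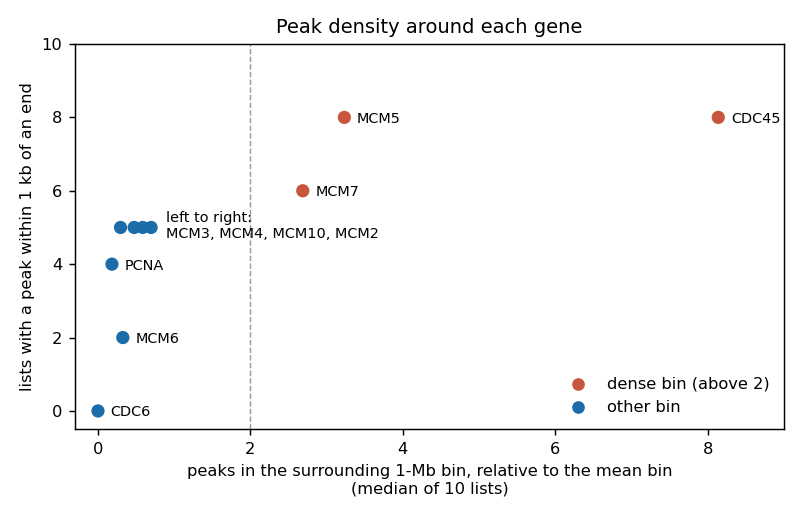
Number of the 10 lists with a peak within 1 kb of a gene end (vertical axis) against the peak density of the surrounding 1-Mb bin, as the median over 10 lists of the count relative to the mean bin (horizontal axis), for each of the 10 genes. The dashed line marks the density of 2 above which a bin was called dense. MCM7, MCM5 and CDC45 lie to its right with 6 to 8 lists, and the other 7 genes lie to its left with 0 to 5.

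The sequences below are the promoters that lay in a reproducible INTS13 region, which is the union of the peaks of both lists, with CDC6 added after its values were seen, as the gene with no peak. Each spans 250 bases before to 50 bases after a start site, from RefSeq on GRCh38.p14, 5′ to 3′ on the strand of the gene. Where a gene had several start sites, the one first in the table is shown, which at CDC45 lies 0.454 kb into the gene. Capitals mark matches on either strand to the E2F words TTTGGCGC, TTTCCCGC, TTTCGCGC and TTTGCCGC and to CCAAT; at MCM7 the last E2F match overlaps a CCAAT match.
MCM2, chr3:127598161-127598460, + strand: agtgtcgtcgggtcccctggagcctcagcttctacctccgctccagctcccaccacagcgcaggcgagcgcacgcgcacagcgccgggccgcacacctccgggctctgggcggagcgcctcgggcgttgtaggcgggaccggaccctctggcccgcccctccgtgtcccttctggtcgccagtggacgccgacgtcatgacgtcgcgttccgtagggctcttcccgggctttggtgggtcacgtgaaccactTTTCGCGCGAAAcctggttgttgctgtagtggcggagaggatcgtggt
MCM7, chr7:100101348-100101647, - strand: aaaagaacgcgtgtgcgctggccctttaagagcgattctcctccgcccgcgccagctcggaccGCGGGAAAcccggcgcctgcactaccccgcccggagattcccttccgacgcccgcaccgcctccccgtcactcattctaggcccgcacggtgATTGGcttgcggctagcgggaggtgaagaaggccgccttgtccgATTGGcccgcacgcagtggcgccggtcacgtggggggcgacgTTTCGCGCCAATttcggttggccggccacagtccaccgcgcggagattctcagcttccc
MCM10, chr10:13161308-13161607, + strand: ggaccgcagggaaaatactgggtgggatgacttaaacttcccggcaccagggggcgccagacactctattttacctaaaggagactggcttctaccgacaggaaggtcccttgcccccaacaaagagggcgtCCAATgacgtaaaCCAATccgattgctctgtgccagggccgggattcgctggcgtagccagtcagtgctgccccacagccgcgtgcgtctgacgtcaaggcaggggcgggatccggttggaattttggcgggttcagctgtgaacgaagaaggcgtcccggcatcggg
CDC45, chr22:19479670-19479969, + strand: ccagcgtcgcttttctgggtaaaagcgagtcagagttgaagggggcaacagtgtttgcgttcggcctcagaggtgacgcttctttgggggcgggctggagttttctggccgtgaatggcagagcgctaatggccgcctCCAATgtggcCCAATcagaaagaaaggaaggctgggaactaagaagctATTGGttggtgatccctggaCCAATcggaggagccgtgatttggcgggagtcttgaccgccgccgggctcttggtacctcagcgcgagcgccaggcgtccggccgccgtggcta
PCNA, chr20:5126573-5126872, - strand: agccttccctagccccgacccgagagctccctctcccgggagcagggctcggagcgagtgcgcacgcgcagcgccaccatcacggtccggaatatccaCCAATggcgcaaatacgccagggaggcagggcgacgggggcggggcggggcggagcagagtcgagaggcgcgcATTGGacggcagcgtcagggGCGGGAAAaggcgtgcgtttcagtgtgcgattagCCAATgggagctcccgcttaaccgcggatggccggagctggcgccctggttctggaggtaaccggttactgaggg
CDC6, chr17:40287629-40287928, + strand: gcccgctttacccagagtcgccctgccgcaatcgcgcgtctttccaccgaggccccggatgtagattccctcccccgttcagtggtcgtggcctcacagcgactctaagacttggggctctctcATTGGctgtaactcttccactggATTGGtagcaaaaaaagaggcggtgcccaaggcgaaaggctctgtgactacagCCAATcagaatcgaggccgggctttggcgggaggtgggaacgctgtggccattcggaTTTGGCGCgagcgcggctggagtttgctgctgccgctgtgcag

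At MCM2 all 300 bases were under an INTS13 peak in both lists. At MCM7, MCM10, CDC45 and PCNA all 300 bases were under an INTS13 peak of replicate 1, while the replicate 2 peaks that complete the region lay to the sides of the promoter shown and covered 0 bases of it. Further start sites of MCM7 lie 0.643 and 0.868 kb into the gene. All 300 bases of each of their promoters were under an INTS13 peak in both lists. INTS11 replicate 1 covered 57 of the 300 bases shown at CDC45 and all 300 at the outermost start site of that gene, and replicate 2 covered 0 at both. No reproducible HDGF, ZEB1 or ZNF609 region touched any promoter of the 8 genes that matched the table. MCM4 and MCM5 were not matched, so their strand was not used here and no promoter of theirs was searched. An E2F word was present in the promoters of 6 of 8 genes (MCM2, MCM3, MCM6, MCM7, CDC6 and PCNA), against 20 of 56 other replication genes (35.7%) and 4.45% of all 15811 genes in the table. CCAAT was present in 7 of 8, all but MCM2, against 53.6% of other replication genes and 36.3% of all genes. The GC box GGGCGG was present in 6 of 8, against 73.2% of other replication genes and 58.5% of all genes. CACCTG, the E-box word bound by ZEB1, was in 0 of 8, against 12.5% of other replication genes and 19.9% of all genes. E2F words stood in the promoter of MCM2, in those of MCM3, MCM6, MCM7 and PCNA, which INTS13 peaks covered wholly or in part in replicate 1 only, and in that of CDC6, which no list covered. For MCM7 and PCNA this holds for the promoter shown, as their further start sites had no E2F word. A match is a match of letters only and does not show binding.

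At the 8 genes with a strand, the start and the opposite end were counted apart, with no test between them. Within 1 kb of the start, INTS13 was reproducible at 5 of 8 genes (MCM2, MCM7, MCM10, CDC45 and PCNA), against 73.2% of other replication genes and 60.1% of all genes. At the opposite end INTS13 was reproducible at 4 of 8, against 42.9% of other replication genes and 43.4% of all genes. HDGF was reproducible within 1 kb of the start at MCM2 and MCM6, 2 of 8 genes, against 32.1% of other replication genes and 15.4% of all genes. At the opposite end HDGF was reproducible at MCM3, MCM7 and CDC45, 3 of 8 genes, against 19.6% of other replication genes and 14.9% of all genes. MCM2, MCM7 and CDC45, 3 of 8 genes, had a reproducible INTS13 region at both ends, near the 39.3% of other replication genes and 38.5% of all genes. No gene of the 8 had a reproducible HDGF region at both, where 8.93% of other replication genes and 7.20% of all genes did. MCM2 nevertheless had HDGF peaks at both ends in each list. INTS11 was reproducible at the start at 2 of 8 genes, MCM2 and CDC45, where 15.2% of all genes were called. INTS11 was reproducible at the opposite end at CDC45 alone, 1 of 8, where 10.4% of all genes were called.

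HDGF peaks also lay inside the genes. HDGF peaks covered a larger share of the gene body than of the 100 kb on each side, in both lists, at 9 of the 10 genes, all but CDC6, against 50 of 67 other replication genes (74.6%) and 31.8% of all genes. The same was true of INTS13 peaks at 4 of 10 genes (MCM4, MCM5, MCM7 and CDC45), against 34.3% of other replication genes and 36.9% of all genes. For INTS11 it was true of MCM2 and MCM3, 2 of 10 genes, against 23.9% of other replication genes and 16.6% of all genes. The median share of the body covered by HDGF peaks was 19.8% in replicate 1 and 15.3% in replicate 2 for the 10 genes, while their flanks were covered to 4.85% and 3.49%. Over all genes the HDGF medians were 1.77% and 0.890% of the body and 2.43% and 1.66% of the flanks. Outside dense bins the count was 6 of 7 genes (85.7%), against 67.9% of other replication genes and 27.4% of all genes. With peaks of a -log10 q of 5 or more alone it was 4 of 10 genes (MCM3, MCM5, MCM7 and CDC45), against 11.9% of other replication genes and 4.31% of all genes. The flanks hold the bodies of neighbouring genes, and this comparison was chosen after seeing the data.

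Coverage of the same body did not always mean the same positions. Of 91 HDGF peaks inside the 10 genes in replicate 1, 46 overlapped a peak of replicate 2, and 34 of these were at MCM5 and CDC45. At MCM10, 0 of 4 HDGF peaks of replicate 1 overlapped any of the 4 of replicate 2, and at MCM6 1 of 4 did. Of 88 INTS13 peaks inside the genes in replicate 1, 66 overlapped a peak of replicate 2. For INTS11 it was 22 of 64. The same overlap was not counted over all genes, so these counts describe the 10 genes and cannot be called high or low. Overlap also depends on the number and width of peaks, and INTS11 had 195303 peaks in replicate 1 and 106144 in replicate 2.

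**Figure D4:**
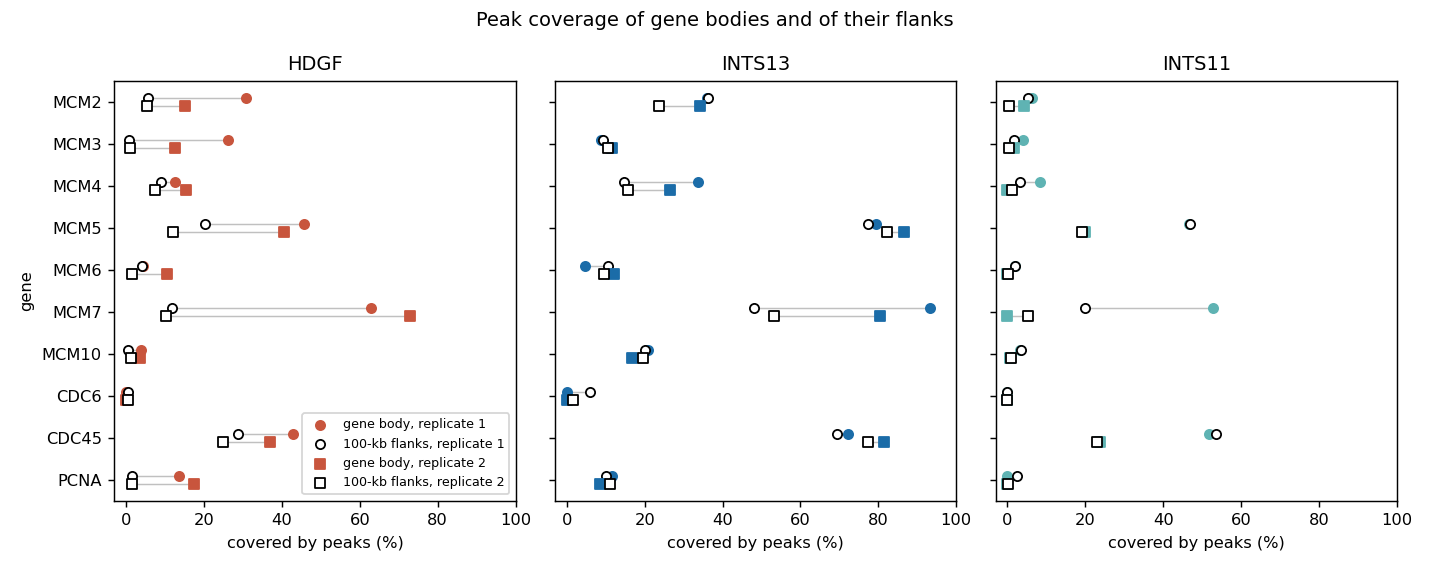
Share of the gene body (filled) and of the 100 kb on each side (open) covered by peaks (%, horizontal axis) for the 10 genes, in replicate 1 (circles) and replicate 2 (squares), with a panel each for HDGF, INTS13 and INTS11. In the HDGF panel the filled points lie to the right of the open ones at all genes but CDC6, while in the INTS13 panel this holds in both replicates at MCM4, MCM5, MCM7 and CDC45.

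Among the genes of the helicase ring, MCM7 had the largest share of its body under HDGF peaks in both lists. MCM7 (chromosome 7, 100092728 to 100101397, - strand, 8.67 kb) had INTS13 peaks over 93.3% and 80.4% of its body in replicates 1 and 2 and HDGF peaks over 62.8% and 72.9%. Its flanks were covered to 48.0% and 53.3% by INTS13 and to 11.8% and 10.1% by HDGF. The gene lies in a dense bin, its windows also reach COPS6 and AP4M1, and the microRNA genes MIR25 and MIR106B lie inside it, both within reproducible regions of INTS13 and of HDGF. The highest INTS13 peak of replicate 1 was 8.39 kb wide with a fold of 4.07 (top 0.750%), and its summit lay 495 bases before the start site. The highest INTS13 peak of replicate 2 had a fold of 3.20 (top 1.97%) and overlay the opposite end. Its summit lay 3771 bases beyond that end, outside the gene and the 1-kb window. Within 1 kb of an end, the highest HDGF folds were 4.54 (top 2.12%) and 4.18 (top 9.57%), both at the opposite end. Inside the gene, away from these windows, HDGF replicate 2 had a peak of higher fold, 5.11. INTS11 and ZEB1 peaks were found in replicate 1 only, with folds of 2.76 and 2.63.

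MCM3 had the strongest HDGF peak of the 10 genes, and it lay at the end of the gene. MCM3 (chromosome 6, 52264015 to 52284742, - strand, 20.7 kb) had an HDGF peak of fold 6.04 in replicate 2, within the top 0.256% of that list, with its summit 138 bases inside the opposite end. The overlapping peak of replicate 1 had a fold of 4.14 (top 5.08%) with its summit 715 bases inside. The 2 peaks formed a region at chr6:52263749-52265379. HDGF peaks covered 26.1% and 12.7% of the MCM3 body in replicates 1 and 2, while the flanks were covered to 0.632% and 0.903%. The nearest HDGF peak beyond the start of the gene was 22.2 kb away in replicate 1 and 20.3 kb away in replicate 2. INTS13 had a peak just before the start in replicate 1 only (fold 3.38, top 3.69%), and its reproducible region, at the opposite end, had folds of 1.99 and 2.02. Neither INTS11 list had a peak at either end of MCM3.

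MCM2 was reached by 3 proteins close to its start. MCM2 (chromosome 3, 127598411 to 127622436, + strand, 24.0 kb) had INTS13 peaks over the start site in both lists, with folds of 3.38 (top 3.69%) and 2.55 (top 13.5%) and summits 23 and 748 bases after the start. HDGF replicate 2 had a peak of fold 3.95 (top 15.4%) with its summit 795 bases after the start. The overlapping HDGF peak of replicate 1, of fold 3.94, lay outside the 1-kb window, so the HDGF call rests on replicate 2 reaching into the window. The INTS11 call likewise rests on replicate 1, of fold 1.93, while the peak of replicate 2, of fold 2.02, lay outside. HDGF covered 30.7% and 15.1% of the body, beside 5.64% and 5.35% of the flanks. The windows also reach TPRA1 and LOC107986126.

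MCM4 and MCM5 have no strand here, and positions are given from the lower coordinate. MCM4 (chromosome 8, 47960941 to 47978160, 17.2 kb) had INTS13 folds of 3.72 (top 1.61%) and 2.29 (top 31.1%) and HDGF folds of 3.35 (top 29.1%) and 4.41 (top 5.89%), all at the lower end, where the window also reaches PRKDC. INTS11 had a peak there in replicate 1 only (fold 2.41). INTS13 covered 33.8% and 26.4% of the MCM4 body, beside 14.7% and 15.6% of the flanks. HDGF covered 12.5% and 15.5% of it, beside 8.84% and 7.38%.

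MCM5 was the one gene with reproducible regions of 4 proteins, and it lies in a dense bin. At its lower end, MCM5 (chromosome 22, 35400140 to 35455031, 54.9 kb) had INTS13 folds of 3.55 and 3.27 (top 2.42% and 1.66%). HDGF folds there were 4.14 and 4.41 (top 5.08% and 5.89%), and the highest inside the gene were 5.32 and 4.65. INTS11 differed between replicates, with a fold of 3.03 in replicate 1 (top 2.81%) and 2.09 in replicate 2 (top 69.8%). ZEB1 had a fold of 3.07 in replicate 1 (top 11.5%) and 2.29 in replicate 2 (top 93.1%), so its only reproducible region at these genes rests on a peak near the foot of the replicate 2 list. INTS13 covered 79.3% and 86.7% of the body and almost as much of the flanks, 77.5% and 82.2%. HDGF covered 45.6% and 40.5% of the body, beside 20.1% and 12.1% of the flanks.

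MCM6 had little at its ends. MCM6 (chromosome 2, 135839626 to 135876443, - strand, 36.8 kb) had an INTS13 peak over its start in replicate 1 (fold 3.12, top 7.05%) and none at either end in replicate 2. Its HDGF call is the weakest of the 7. The peak of replicate 2 had a fold of 2.56 (top 98.3%) with its summit 1039 bases after the start, and the overlapping peak of replicate 1, of fold 3.55, lay outside the window. HDGF covered 4.46% and 10.5% of the body, beside 4.06% and 1.48% of the flanks. No INTS11, ZEB1 or ZNF609 list had a peak at either end.

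Both helicase activators had reproducible INTS13 regions within 1 kb of the start. CDC45 (chromosome 22, 19479466 to 19520612, + strand, 41.1 kb) had INTS13 folds of 3.81 (top 1.32%) and 3.66 (top 0.628%) in the window at the start, and the start site itself was under an INTS13 peak in replicate 1 only. It was the only one of the 10 genes with reproducible INTS11 regions at both ends, with folds of 2.41 and 2.38 in replicates 1 and 2 at the start and 2.55 and 2.24 at the opposite end. HDGF was reproducible at the opposite end, with highest folds of 3.94 (top 7.95%) and 4.41 (top 5.89%). ZNF609 had a peak of fold 3.05 in replicate 1 (top 13.9%), 826 to 1465 bases before the start, and none in replicate 2. CDC45 has the densest bin of the set, its window reaches UFD1, and INTS13 covered 72.1% and 81.4% of the body beside 69.5% and 77.3% of the flanks. MCM10 (chromosome 10, 13161558 to 13211110, + strand, 49.6 kb) had the highest INTS13 fold of the 10 genes, 4.24 in replicate 1 (top 0.536%), with its summit 76 bases before the start. In replicate 2 the highest INTS13 peak at MCM10 had a fold of 2.29 (top 31.1%) and a summit 1181 bases before the start. The overlapping peak of replicate 2 had a fold of 2.02. MCM10 had INTS11 peaks in both lists but at different ends, with folds of 1.79 and 2.02, and an HDGF peak in replicate 1 only (fold 2.96, at the opposite end).

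PCNA, the sliding clamp, had INTS13 peaks near its start, and both INTS13 and HDGF covered more of its body after the midpoint. PCNA (chromosome 20, 5114953 to 5126622, - strand, 11.7 kb) had INTS13 folds of 3.03 (top 8.77%) and 1.96 (top 73.0%), with summits 34 and 1096 bases before the start. HDGF peaks covered none of the body before its midpoint in either list, and 27.3% and 34.8% of the body after it in replicates 1 and 2. INTS13 peaks covered 7.37% and 0% of the body before the midpoint and 15.7% and 16.9% after it, in the same order. The highest HDGF peaks inside PCNA had folds of 3.75, at 8.43 to 8.81 kb from the start in replicate 1, and 5.11, at 9.58 to 10.2 kb in replicate 2. At the opposite end itself both lists had an HDGF peak, of folds 2.37 and 3.25, but those peaks did not overlap, so PCNA was not counted. A further start site of PCNA in the promoter table lies 6.66 kb into the gene, where INTS13 covered 275 of the 300 bases of the promoter in replicate 1 and 0 in replicate 2, and HDGF covered 0 in replicate 1 and 262 in replicate 2. The window of PCNA also reaches CDS2.

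CDC6, the loader of the ring, had no peak of any list at either end or inside the gene. CDC6 (chromosome 17, 40287879 to 40304657, + strand, 16.8 kb) lies in a bin where 6 of the 10 lists had no peak at all. The nearest INTS13 peaks were 4.61 kb away in replicate 1 and 25.3 kb away in replicate 2. The nearest HDGF peaks were 3.15 and 2.00 kb away, both beyond the end of the gene. The nearest INTS11 peaks were 532 and 1140 kb away, and those of ZEB1 and ZNF609 lay 1207 to 1448 kb away. The low density of peaks covers the region as well as the gene.

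**Figure D5:**
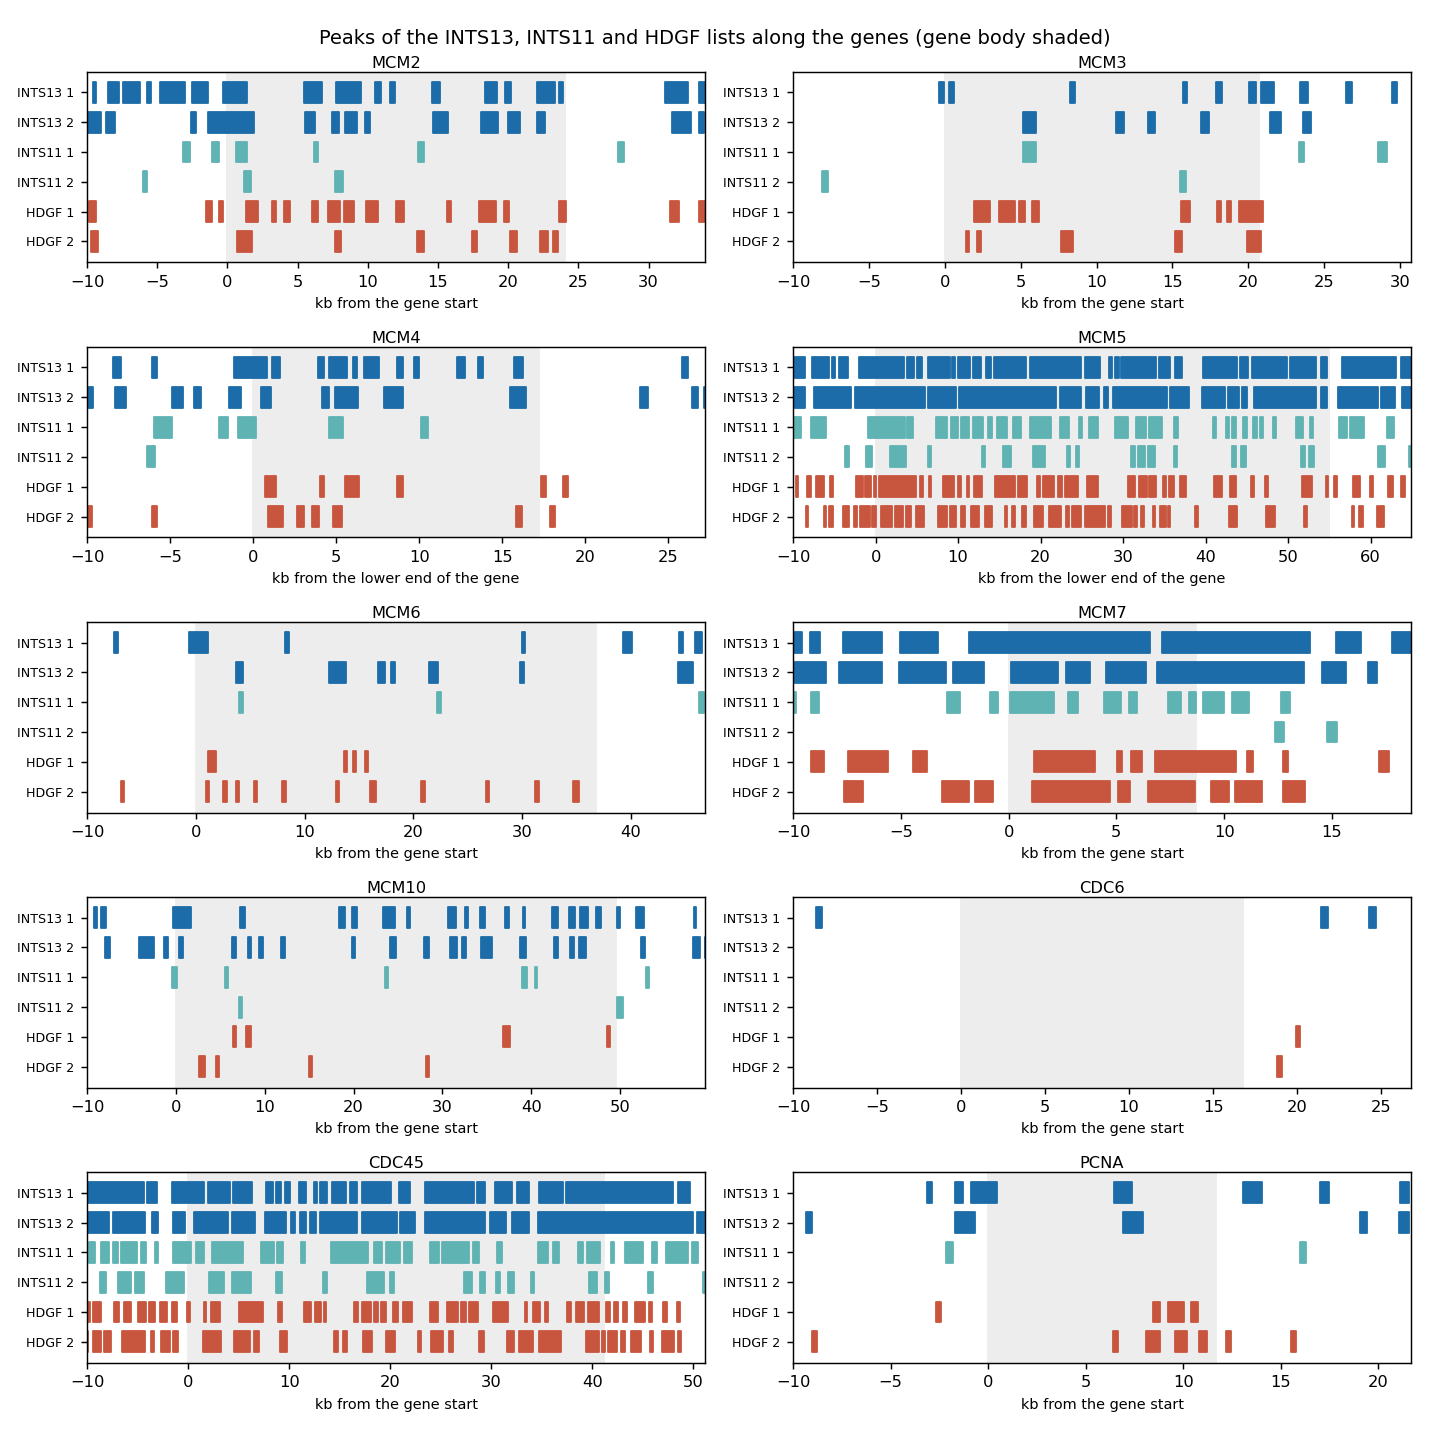
Peaks of both INTS13, INTS11 and HDGF lists along each of the 10 genes (gene body shaded), with the distance in kb from the gene start, or from the lower end for MCM4 and MCM5, on the horizontal axis. INTS13 blocks overlie the start of MCM2 in both lists and those of MCM10 and CDC45 in replicate 1 only, HDGF blocks lie over the right-hand part of PCNA and the far end of MCM3, and the CDC6 body is empty.

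The 2 INTS13 lists differed in how close their summits were to the start sites. In replicate 1, 7 of the 8 genes with a strand, all but CDC6, had their highest peak at the start with a summit within 500 bases of it, against 36 of 56 other replication genes (64.3%) and 38% of all genes. MCM7 and MCM6 were only just inside this limit, with summits 495 and 498 bases from the start. In replicate 2 the count was 0 of 8, against 15 of 56 other replication genes (26.8%) and 17.9% of all genes. There the highest peak was at the start of 4 genes, and its summits at MCM2, MCM10, CDC45 and PCNA lay 748, 1181, 2884 and 1096 bases from the start. A weaker INTS13 peak of replicate 2 at MCM10 had its summit 457 bases after the start. Within 1 kb of an end of the 10 genes, the highest INTS13 folds ranged from 3.03 to 4.24 in replicate 1, with a median rank of 2.42% from the top. In replicate 2 they ranged from 1.96 to 3.66, with a median rank of 22.3%. The highest HDGF folds in the same windows ranged from 2.37 to 4.54 in replicate 1, with a median rank of 18.5%. In replicate 2 they ranged from 2.56 to 6.04, with a median rank of 7.73%.

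INTS13 and HDGF regions were also found among the other replication genes of each step, and the counts can be read beside the 63.7% and 22.2% of all genes given above; no test was run. Of 11 licensing genes, INTS13 was reproducible at 7 and HDGF at 4 (ORC1, CDT1, GMNN and MCMBP). Of 15 genes of helicase activation and fork protection, INTS13 was reproducible at 12, among them all 4 GINS genes, and HDGF at 7, among them CDC7, the kinase that phosphorylates the MCM ring. Of 12 replicative polymerase genes, INTS13 was reproducible at 10 and HDGF at 5. Of 15 clamp loading and strand maturation genes, INTS13 was reproducible at 11 and HDGF at 6, among them FEN1, the flap endonuclease. Of 14 genes of S phase control and nucleotide supply, INTS13 was reproducible at 12 and HDGF at 7, among them E2F1 and RRM2. The genes with peaks in the most lists were POLA2 and RPA2 with 9, then CDC25A, CHAF1B, MCMBP and RRM2 with 7. Next were CDT1, DONSON, E2F1 and FEN1 with 6, the first by symbol of a larger group of genes with 6. INTS11 was reproducible at 2, 2, 1, 4 and 2 genes of these steps, in the same order, and ZEB1 at RECQL4 and RPA2. Over the 67 genes this was 16.4% for INTS11, beside 17.5% of all genes, and 2.99% for ZEB1, beside 3.79%. By presence over the 10 lists, 12 of the other replication genes differed least from the 10 genes, in 2 lists on average, and ASF1B, CCNE1 and CDC7 are the first of them by symbol.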

How the data were processed

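Chromatin immunoprecipitation libraries of 5 proteins in HEK293T cells were analysed, 2 per protein, grouped by sample title. FastQC, Trimmomatic, Bowtie, Picard and MACS2 had been used, per the submitters' processing notes. No version, threshold, control or build is given in the sources used here, and GRCh38 was inferred from contig names in the deposited files. Peaks were deposited per library, and gaps in their running numbers show that some had been removed before deposit. The deposited fold is a linear ratio, the deposited p-value and q-value are on a −log10 scale, the deposited score is a whole number that follows the q-value, and the deposited summit is an offset from the peak start. These values are the authors' own for each peak and were used only to describe, rank and filter peaks within a list.

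Genes were those of the RefSeq gene table for GRCh38. A strand and promoter came from the RefSeq promoter table for 15811 of 19970 protein-coding genes and for 8 of the 10 described. Peaks were joined to genes with Python 3.11.15, pandas 2.3.3 and numpy 2.4.6, and the join was tested on simulated peaks. Wider or narrower windows, stricter peak lists, summits in place of peaks and single replicates were tried as alternatives. The genes and the list of 67 other replication genes were chosen with earlier results of these data known. All 10 genes are named; of the others, the 10 with a peak in the most lists and the 3 most alike over the lists, by mean Hamming distance, with ties taken by symbol. Further genes of the other list are named as examples chosen after their values were seen. Promoters are shown where a reproducible region covered them, 6 at most and none from chromosome 8. Read depth is unknown, so no counting interval is given.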

Additional observations from a re-analysis of the deposited data

How the results depend on the processing

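The counts depend most on how strong a peak must be. With a −log10 q of 5 or more, reproducible regions were counted at 3 of the 10 genes for INTS13, 1 for INTS11, 2 for HDGF and 0 for ZEB1, against 13, 1, 4 and 0 of the 67 other replication genes. The shares of all genes were 18.1%, 2.83%, 2.66% and 0.225%. With the top 10000 peaks of each list the counts were 1, 1, 3 and 0 of the 10 genes, against 1, 1, 5 and 1 of the others. Of all genes, 4.66%, 2.46%, 3.64% and 0.956% were called there. The 48 pairs of gene and list with a peak became 18 and 17 under these settings. At gene starts alone there were 25 pairs, over the 8 genes with a strand. That setting leaves out MCM4 and MCM5, which hold 5 and 8 of the 48 pairs. The HDGF count moved with the window: within 500 bp it was 4 of 10 and 19 of 67, ZEB1 was 0 of 10 there, and ZNF609 was at 1 of 67 within 2 kb. Beside these stand 16.4%, 3.04% and 2.15% of all genes, in that order. With at least 50% of a region in the window the counts of the 10 genes were 1 for INTS11, 3 for HDGF and 0 for ZEB1, and of the others 34 for INTS13 and 19 for HDGF. The shares of all genes were 45.6% for INTS13, 11.6% for INTS11, 15.5% for HDGF and 2.53% for ZEB1. With a summit of each replicate in the window the counts of the 10 genes were 5 for INTS13 and 0 for ZEB1, with ZEB1 at 1 of the others. Of all genes, 54.9% and 3.73% were called. At gene starts alone, over 8 and 56 genes, the counts were 5 for INTS13, 2 for HDGF and 0 for ZEB1, and of the others 18 for HDGF and 0 for ZEB1. The shares of all genes were 60.1%, 15.4% and 3.09%. Outside dense bins, over 7 and 53 genes, the counts were 5 for INTS13, 1 for INTS11, 4 for HDGF and 0 for ZEB1, and of the others 3 for INTS11, 16 for HDGF and 0 for ZEB1. Of all genes there, 54.5%, 5.95%, 12.5% and 0.168% were called for INTS13, INTS11, HDGF and ZEB1.

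Counts from a single replicate are given for replicate 1 and then replicate 2. Of the 10 genes, INTS13 gave 9 and 8, INTS11 6 and 3, HDGF 8 and 8, ZEB1 3 and 1, and ZNF609 2 and 0. Of the others, INTS13 gave 61 and 54, INTS11 42 and 13, HDGF 48 and 40, ZEB1 6 and 5, and ZNF609 3 and 0. The shares of all genes in the single lists are given in the Results, in the same order. HDGF coverage of bodies above flanks held at 9 and 9 of the 10 genes in replicates 1 and 2 alone, and at 58 and 54 of the others. With 20-kb flanks, in both lists, it held at 9 of the 10 genes and 43 of the others. Of all genes, 41.6% and 39.2% were called in replicates 1 and 2 alone and 30.2% with 20-kb flanks. This coverage held at 4 of 10 and 8 of 67 with a −log10 q of 5 or more, where 4.31% of all genes were called. This body comparison and the dense bins were added after seeing the data. Of the settings tried on single genes, 38 left the number of lists within 1.5 times and 30 did not. The causes were not tested. No paired analysis was possible because no result came from a test. Peak lists without read counts limit precision to the presence, rank and width of a peak.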
